A study of Mus musculus with 53 samples.

Results

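Bone marrow-derived macrophages (BMDMs) that received no cytokine were compared across the first 6 h of a time course, to ask which genes change in control cells while parallel dishes are exposed to the cytokine IL-4. The comparison used the 16 wild-type (WT) control samples at 0, 1, 3 and 6 h out of the 53 samples of the series, 4 samples at each time, so that 12 later samples were set against 4 samples at 0 h. They were selected by their labels for genotype, treatment and time. Genes were kept where at least 1 of the 16 samples reached 1 FPKM (a density of sequenced fragments scaled to transcript length and to the size of the library), which left 10716 of 23847 loci.

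Bone marrow cells of mice aged 8 to 12 weeks on the C57BL/6 background had been grown for 6 days in L929 supernatant, a source of the macrophage growth factor M-CSF, and none of the 16 samples was given IL-4. The 8 Stat6-/- controls at the same times, 2 at each, carry a full-body knockout of the transcription factor through which IL-4 acts, and they are labelled as controls too. They share no library with the WT samples and serve below as a separate set of untreated cells. Whether the control dishes received a medium change or a vehicle in place of IL-4 is not given in the sources used here. The WT time course came from 4 individual animals per the study's legends, but no source says which animal carries which replicate number. Samples with the same number deviated together (correlation over 0.1) in all 4 pairs between 1 h and each other time and between 3 h and 6 h, in 2 of 4 pairs between 0 h and 3 h and in 3 of 4 between 0 h and 6 h. Tests below use no block for the replicate number, and values with that block, called blocked, are given beside the main counts, lists and genes that they change.

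Macrophages sense a change of their surroundings within minutes. Handling, new medium or a brief fall in temperature can act through kinases on transcription factors that are already present, which switch on immediate early genes such as the FOS and NR4A factors within the first hour, and through these on secreted and adhesive proteins later. In the opposite direction, transcripts with a short life, among them many mRNAs of transcription factors and RNA-processing proteins, are the first to fall when synthesis slows. Mild cold has its own marker, the RNA-binding protein CIRBP, whose mRNA accumulates when cells are cooled by a few degrees.

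Per-sample FPKM totals ran from 385888.9 to 464914.9, and of these totals between 12.73% and 18.72% came from the top 10 loci. In each sample 10157 to 10365 loci reached 1 FPKM, and depth relative to the series, read from the smallest steps of the values, ranged from 0.747 to 1.566. Of 12 macrophage markers 11 were in the tables and all reached 1 FPKM, with Csf1r, the M-CSF receptor, at 692 to 970 FPKM and Emr1, which encodes F4/80, at 668 to 821 FPKM. Lyz2 (lysozyme) was listed at 0 in 5 of the 16 samples and at 17630 FPKM or more in the others, so its level was not compared. Defining markers of B and T cells were at or near 0 (Pax5 at 0 in all samples, Cd3e at most 0.0253 FPKM), with 1 marker of each list above 1 FPKM, Cd79b at 4.35 to 5.94 FPKM and Cd4 at 3.31 to 8.03 FPKM, and no fibroblast or mast cell marker reached 1 FPKM. Summed neutrophil markers ranged from 466 to 594 FPKM at 0 h and from 344 to 615 FPKM at 1 h, and summed monocyte markers from 162 to 218 FPKM at 0 h and from 105 to 166 FPKM at 6 h. Fewer cells of a type and less RNA per cell cannot be told apart in such bulk samples. Stat6 itself was at 82.99 ± 3.11 FPKM (SD, n = 4) at 0 h and 80.4 ± 3.34 FPKM at 6 h in WT, and at 20.3 and 21.9 FPKM in the 2 Stat6-/- samples at 0 h.

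Few genes changed by as much as 2-fold. With a call at an adjusted p under 0.05 (limma, all 53 samples in one fit) and a 2-fold change on the log2(FPKM + 1) scale, no locus was called for the 12 later samples pooled against 0 h (0.0%) or at 1 h (0.0%). At 3 h 1 locus (0.00933%) and at 6 h 2 loci (0.0187%) were called, all higher, and they were Thbs1 at both times and Vegfa at 6 h. At an unadjusted p under 0.05 with a 2-fold change, 4 loci passed in the pooled comparison and 6 at 1 h. Counted from 1 h instead of 0 h, 4 loci were called at 3 h (0.0373%) and 5 at 6 h (0.0467%), again all higher, and no locus differed between 6 h and 3 h (0.0%), where 5 passed at an unadjusted p with a 2-fold change. With the adjusted p alone and no limit on the fold, 8 loci were higher (0.0747%) and 3 lower (0.028%) in the pooled comparison, 9 higher (0.084%) and 7 lower (0.0653%) at 3 h, and 13 higher (0.121%) and 2 lower (0.0187%) at 6 h. With quantile normalization these counts were 11 and 1 pooled, 12 and 6 at 3 h and 42 and 13 at 6 h. In the main fit the 1 h samples stood out, with 29 loci higher (0.271%) and 198 lower (1.85%) than at 0 h. With the block 149 were higher (1.39%) and 583 lower (5.44%) at 1 h, and at 6 h 265 were higher (2.47%) and 321 lower (3.0%), so that the balance at 6 h turned, with 3 of 6 blocked 2-fold calls higher. With only the compared groups in the fit and the block, 435 loci passed at 1 h and 736 at 6 h, so that 1 h no longer led. The 3 comparisons with 0 h share the 4 samples at 0 h. SE and p rest on the spread within all 18 groups of the series, not on that of the WT controls alone. With only the compared groups in the fit and no block, 88 loci passed the adjusted p at 6 h, 40 of them higher. From here a gene is said to rise or fall when its adjusted p is under 0.05, whatever its size, and most of those changes were well under 2-fold.

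**Figure D1:**
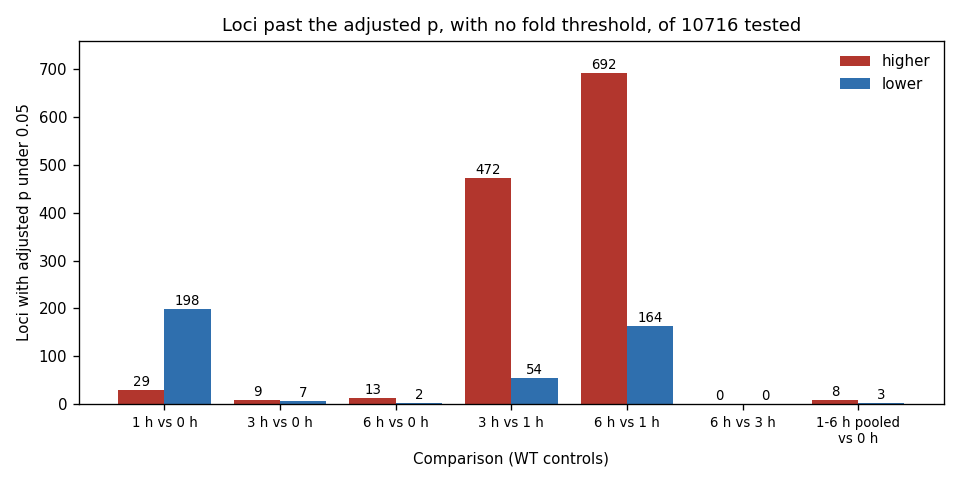
Number of loci (y axis) higher or lower at an adjusted p under 0.05, with no limit on the fold change and no block for the replicate number, in each comparison of WT controls (x axis), of 10716 loci tested. The 1 h samples differ from 0 h mostly by lower loci (198 against 29 higher), both later times differ from 1 h mostly by higher loci (472 and 692), and 3 h and 6 h differ from each other in none.

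The largest rise was that of Thbs1 (chromosome 2, 118111922 to 118127133, mm10), which encodes thrombospondin-1, a secreted matrix glycoprotein that binds CD36 and CD47 and activates latent TGF-beta. Its level was 12.5, 12.7, 11.1 and 16.8 FPKM in the 4 samples at 0 h, 7.67, 8.48, 7.64 and 7.18 FPKM at 1 h, 33.3, 34.8, 29.3 and 33.3 FPKM at 3 h and 45.7, 38.6, 45.1 and 40.5 FPKM at 6 h. Every sample at 1 h was thus below every sample at 0 h, and every sample at 3 h and 6 h was above them all. The log2 fold change against 0 h was -0.69 ± 0.19 (SE) at 1 h (adjusted p = 0.0398), 1.25 ± 0.19 (SE) at 3 h (adjusted p = 0.00078) and 1.62 ± 0.19 (SE) at 6 h (adjusted p = 2.01e-06). In Stat6-/- controls Thbs1 was at 16.3 and 25.8 FPKM at 0 h, 14.5 and 16.8 FPKM at 1 h, 47.2 and 41.7 FPKM at 3 h and 60.2 and 35.5 FPKM at 6 h. There the samples at 0 h and 1 h overlapped, and both later times lay above them.

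Vegfa (chromosome 17, 46016993 to 46032377), the angiogenic growth factor that is induced by low oxygen, growth factors and cAMP signals, rose later. It was at 5.85, 5.28, 5.30 and 7.20 FPKM at 0 h and 4.96, 4.81, 6.02 and 5.92 FPKM at 1 h, where the groups overlapped. At 3 h it was at 9.65, 9.86, 8.02 and 10.2 FPKM and at 6 h at 14.3, 14.2, 12.8 and 12.6 FPKM, above every sample at 0 h, with a log2 fold change at 6 h of 1.07 ± 0.14 (SE) (adjusted p = 1.87e-05). No other hypoxia gene passed the test with it. Of 28 tested genes of the hypoxia and glycolysis list Vegfa was the only one past the adjusted p at 6 h, the list's median log2 fold change was -0.07 against -0.01 for all loci, and the glycolytic enzyme gene Aldoc was at 20.2 FPKM at 0 h and 13.4 FPKM at 6 h (adjusted p = 0.0517, blocked 0.000198).

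The orphan nuclear receptors Nr4a1 and Nr4a2, immediate early genes whose products act without a known hormone, rose together at 3 and 6 h. Nr4a1 (chromosome 15, 101266846 to 101274794) was at 3.56, 3.87, 4.11 and 4.31 FPKM at 0 h, 7.39, 8.45, 6.39 and 6.64 FPKM at 3 h and 7.80, 10.9, 7.79 and 6.20 FPKM at 6 h, with no overlap between 0 h and either later time. Its log2 fold change was 0.72 ± 0.12 (SE) at 3 h and 0.87 ± 0.12 (SE) at 6 h (adjusted p = 0.00243 and 6.47e-05). Nr4a2 (chromosome 2, 57107226 to 57124003) was low throughout, at 0.207, 0.415, 0.282 and 0.381 FPKM at 0 h and 1.33, 1.21, 0.801 and 0.730 FPKM at 6 h, again without overlap (log2 fold change 0.60 ± 0.10 (SE), adjusted p = 0.00154). These 2 genes lay on different chromosomes and share a feature of their promoters that the choice of genes did not use. RefSeq promoter windows of 250 bases before to 50 bases after the start (GRCm38.p6) are shown for both because they move together. Capitals mark the letters TGACG on either strand, the half-site of the motif bound by CREB, a factor that answers to cAMP and calcium.
Nr4a1, chr15:101266596-101266895, plus strand: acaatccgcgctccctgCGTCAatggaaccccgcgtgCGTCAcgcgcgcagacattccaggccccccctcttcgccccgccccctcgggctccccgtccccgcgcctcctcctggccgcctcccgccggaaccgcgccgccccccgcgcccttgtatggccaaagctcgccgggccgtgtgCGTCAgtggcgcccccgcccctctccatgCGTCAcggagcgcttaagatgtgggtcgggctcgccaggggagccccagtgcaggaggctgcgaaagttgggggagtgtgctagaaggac
Nr4a2, chr2:57123954-57124253, minus strand: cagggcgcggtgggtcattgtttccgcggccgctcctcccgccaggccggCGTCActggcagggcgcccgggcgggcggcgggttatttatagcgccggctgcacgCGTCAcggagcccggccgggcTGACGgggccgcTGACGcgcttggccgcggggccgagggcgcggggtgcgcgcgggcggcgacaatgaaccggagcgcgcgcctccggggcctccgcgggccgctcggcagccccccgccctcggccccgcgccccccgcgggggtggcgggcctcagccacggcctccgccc
Each window held 4 such half-sites, at -233, -213, -69 and -40 from the start in Nr4a1 and at -200, -144, -123 and -111 in Nr4a2, while the full palindrome TGACGTCA was in neither. Of the 8039 promoters of loci tested that could be matched by symbol, 33.9% held at least 1 half-site and 0.659% held 4 or more. Among matched promoters of loci that rose, 2 of 7 at 3 h (28.6%) held at least 1, and these were Nr4a1 and Nr4a2 themselves. At 6 h 3 of 10 (30.0%) did, so the loci that rose as a set held it no more often than all loci. In Nr4a2 the half-site at -123 overlaps a match to the antioxidant element TGACNNNGC. Such a match is a description of letters, and the half-site was looked at after the values of both genes were known. The window of Vegfa, which also rose late, is given beside them.
Vegfa, chr17:46032328-46032627, minus strand: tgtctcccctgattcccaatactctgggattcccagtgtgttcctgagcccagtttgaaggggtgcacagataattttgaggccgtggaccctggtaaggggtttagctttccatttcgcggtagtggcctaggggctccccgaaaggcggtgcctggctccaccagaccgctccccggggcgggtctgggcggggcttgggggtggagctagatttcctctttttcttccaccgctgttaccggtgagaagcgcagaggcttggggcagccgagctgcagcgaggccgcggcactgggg
It held no half-site and no match to any other motif searched, which are spelled out with the counts of motifs further on. The window of Fosl2, a gene described below, held no half-site either.

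**Figure D2:**
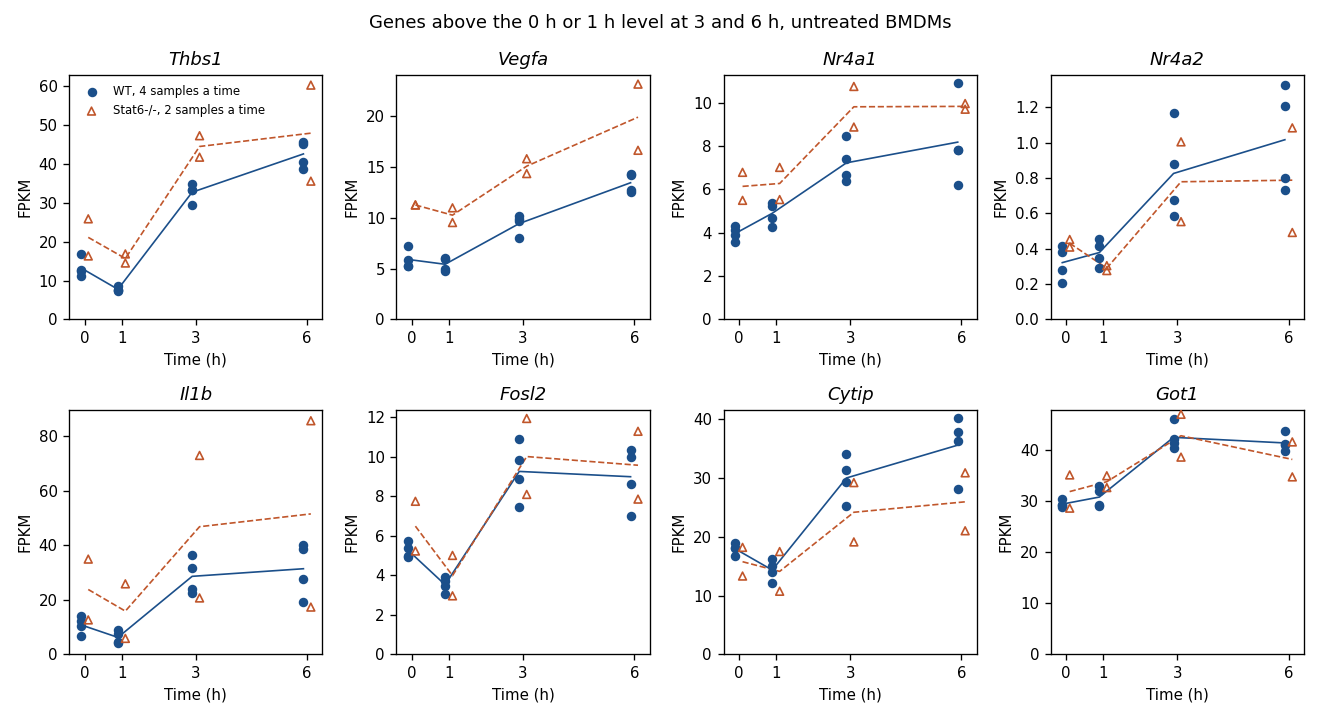
FPKM (y axis, linear from 0) against time in h (x axis) of 8 genes in untreated BMDMs. Filled circles are the 4 WT samples at each time, open triangles the 2 Stat6-/- samples, and lines join the group means. All 4 WT samples at 3 h and 6 h lie above all 4 at 0 h in each of the 8 genes, while Thbs1, Fosl2 and Cytip lie below them at 1 h.

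Other genes that rose at 3 or 6 h did so by less than 2-fold against 0 h on the log2(FPKM + 1) scale. They were named after their values were seen. Cytip, a cytohesin-binding regulator of cell adhesion, was at 16.7, 18.1, 19.0 and 18.1 FPKM at 0 h and 36.3, 37.8, 40.2 and 28.2 FPKM at 6 h (log2 fold change 0.94 ± 0.16 (SE), adjusted p = 0.00131). Cyth1, which encodes cytohesin-1, rose by 0.34 on the log2 scale. Ifitm1, an interferon-inducible membrane protein gene, was at 4.17, 4.93, 7.97 and 7.28 FPKM at 0 h and 11.97, 13.2, 13 and 11.7 FPKM at 6 h (log2 fold change 0.96 ± 0.17 (SE), adjusted p = 0.00412), and all its 6 h samples lay above all those at 0 h. Got1, the cytosolic aspartate aminotransferase, held a narrow range at 29.1, 28.9, 29.1 and 30.3 FPKM at 0 h and stood at 45.9, 41.2, 40.4 and 42.01 FPKM at 3 h (log2 fold change 0.52 ± 0.08 (SE), adjusted p = 0.00146). It stayed there at 6 h, at 40.8, 39.7, 43.7 and 41.02 FPKM. Nuak2, a kinase related to AMPK, was at 12.9, 10.9, 13.6 and 12.4 FPKM at 0 h and 16.03, 16.9, 18.5 and 16.8 FPKM at 6 h, without overlap. Lpar6, a lysophosphatidic acid receptor, rose from 46.7 ± 6.96 to 65.8 ± 5.72 FPKM (SD, n = 4 each), and Pde3b, a cyclic nucleotide phosphodiesterase, from 5.41 ± 0.746 to 8.87 ± 0.849 FPKM. Zfp36, whose product tristetraprolin destabilises inflammatory mRNAs, was at 68.9, 87.04, 111 and 111 FPKM at 0 h and 128, 144, 142 and 125 FPKM at 6 h (log2 fold change 0.53 ± 0.11 (SE), adjusted p = 0.0364). Syn1 also rose at 6 h, and Tob2 and Blcap at 3 h. The fallers at 3 h were Alkbh2, Dleu2, Ctif, Nlrp1a, Tars2, Ttc27 and Gfm2, with log2 fold changes of -0.19 to -0.49, and at 6 h Pdia3, an oxidoreductase of the endoplasmic reticulum, and Gmds. Pdia3 was at 260, 270, 242 and 246 FPKM at 0 h and 186, 198, 203 and 201 FPKM at 6 h, with no overlap (log2 fold change -0.37 ± 0.08 (SE), adjusted p = 0.0364).

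Pooled over the 3 times, 11 loci passed the adjusted p. Thbs1, Nr4a1, Cirbp, Vegfa, Zfp36, Snhg3, Got1 and Nuak2 rose, by 0.35 to 0.73 on the log2 scale, and Alkbh2, a DNA repair dioxygenase gene, Mettl3 and Gfm2 fell. None of the 11 kept all 12 later samples on one side of the 4 samples at 0 h. Without replicate 1 at 0 h none of the 11 passed the adjusted p. All 12 lay above 0 h in 8 other loci (0.0747%) and below it in 3 (0.028%), none of which passed the test. Among these 8, named after their values were seen, Osm, the cytokine oncostatin M, was at 2.74, 3.12, 3.11 and 3.20 FPKM at 0 h and 3.49, 4.15, 4.69 and 4.02 FPKM at 6 h (pooled log2 fold change 0.37 ± 0.09 (SE), adjusted p = 0.139). Per1, a clock gene that also answers acutely to serum and cAMP, was at 5.69, 5.72, 5.99 and 5.88 FPKM at 0 h and 7.25, 6.24, 7.08 and 7.55 FPKM at 1 h (pooled 0.25 ± 0.06 (SE), adjusted p = 0.113). Slc3a2, the heavy chain of amino acid transporters, was at 87.7, 82.6, 79.4 and 82.5 FPKM at 0 h and 88.1, 96.6, 97.4 and 94.8 FPKM at 6 h. In all 3 the groups stood apart at every time, which follows from how these genes were picked.

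At 1 h the leading gene was Cirbp (chromosome 10, 80167841 to 80171653), the cold-inducible RNA-binding protein gene. It was at 16.5, 15.3, 19.4 and 22.7 FPKM at 0 h, 33.4, 28.9, 35.8 and 39.1 FPKM at 1 h, 27.04, 32.2, 30.2 and 24.5 FPKM at 3 h and 19.3, 23.8, 21.4 and 22.8 FPKM at 6 h. All samples at 1 h and 3 h lay above all samples at 0 h, and by 6 h the groups overlapped again. The log2 fold change was 0.87 ± 0.13 (SE) at 1 h (adjusted p = 0.000106), 0.61 ± 0.13 (SE) at 3 h (adjusted p = 0.0356) and 0.24 ± 0.13 (SE) at 6 h (adjusted p = 0.652), and the step from 1 h to 6 h was -0.63 ± 0.13 (SE) (adjusted p = 0.0016). In Stat6-/- controls it was at 24.1 and 20.8 FPKM at 0 h, 43.2 and 36.4 FPKM at 1 h and 26.6 and 24.1 FPKM at 6 h, and in WT cells given IL-4 for 1 h the mean was 33.2 FPKM. Rbm3, the other cold-inducible gene of this kind, was at 45.2 ± 8.98 FPKM at 0 h and 53.7 ± 1.54 FPKM at 1 h. This change did not pass the test (adjusted p = 0.192, blocked 0.0789). Against 0 h Rbm3 had log2 fold changes of 0.35 at 3 h and 0.39 at 6 h. These passed only with the block (adjusted p = 0.221 and 0.0965, blocked 0.0459 and 0.00885).

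The rises at 1 h were, in median, gone by 3 h. Id2, an inhibitor of basic helix-loop-helix factors, was at 34.3, 49.8, 42.8 and 35.95 FPKM at 0 h, 77.1, 74.9, 66.6 and 69.5 FPKM at 1 h and 45.4, 47.1, 42.02 and 30.7 FPKM at 3 h. Its 1 h samples stood apart from all the others, with a log2 fold change of 0.82 ± 0.17 (SE) against 0 h (adjusted p = 0.00507) and of -0.80 ± 0.17 (SE) from 1 h to 3 h (adjusted p = 0.00239). Mnt, a partner of MAX that opposes MYC, was at 12.3, 11.8, 13.7 and 13.6 FPKM at 0 h and 18.4, 15.3, 21.3 and 21.99 FPKM at 1 h. Klf10, a TGF-beta-inducible Kruppel-like factor, was at 12.8, 14.5, 15.2 and 14.6 FPKM at 0 h and 19.2, 18.1, 20.9 and 21.6 FPKM at 1 h. Cd274, the gene of the checkpoint ligand PD-L1, was at 18.4, 20.5, 22.3 and 25.4 FPKM at 0 h and 30.5, 27.9, 30.1 and 35.9 FPKM at 1 h. In all 3 the samples of the 2 times did not overlap, and the log2 fold changes were 0.54, 0.46 and 0.51 (adjusted p = 0.0128, 0.00778 and 0.00457). Mafk, a small MAF transcription factor, the atypical MAP kinase gene Mapk6 and the splicing factor gene Srsf5 rose as well, by 0.35, 0.45 and 0.33. Insig1, which holds back sterol synthesis, was at 19.1 ± 0.601 FPKM at 0 h and 29.7 ± 1.28 FPKM at 1 h without overlap, and missed the threshold (adjusted p = 0.0733, blocked 0.00206). The median log2 fold change of the 29 loci that rose was 0.33 at 1 h, and the same loci had a median of 0.06 at 3 h and 0.01 at 6 h. Picking loci by their 1 h change itself favours larger changes at 1 h than later.

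**Figure D3:**
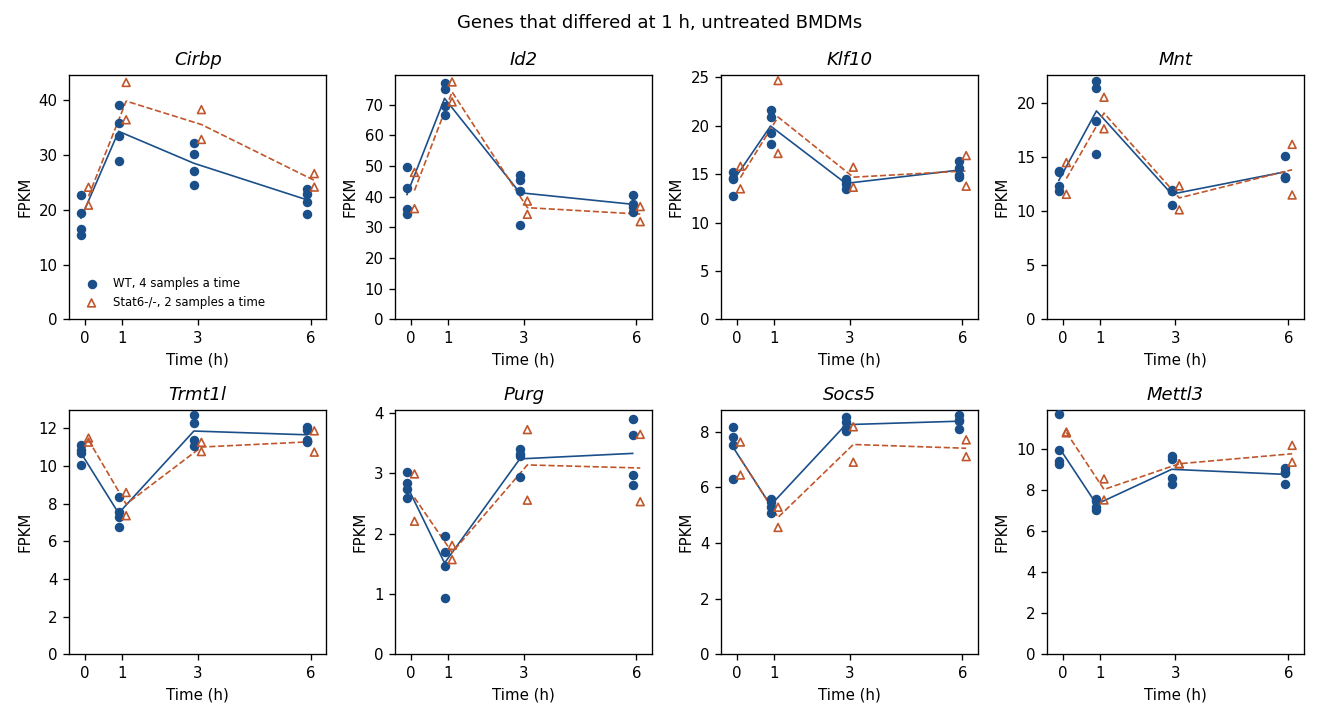
FPKM (y axis, linear from 0) against time in h (x axis) of 8 genes that differed between 1 h and 0 h in WT controls. Filled circles are the 4 WT samples at each time, open triangles the 2 Stat6-/- samples, and lines join the group means. Cirbp, Id2, Klf10 and Mnt are highest at 1 h, Trmt1l, Purg, Socs5 and Mettl3 lowest, and all 4 WT samples at 1 h lie apart from all 4 at 0 h in each gene.

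The 198 loci that fell at 1 h did so by a median of -0.29 on the log2 scale, at most by 0.69 in Thbs1, and their median was 0.03 at both 3 h and 6 h. These loci too were picked by their 1 h change. The tRNA-modification gene Trmt1l had the lowest adjusted p of them, at 10.04, 10.7, 10.8 and 11.1 FPKM at 0 h and 7.53, 6.73, 8.37 and 7.30 FPKM at 1 h (log2 fold change -0.46 ± 0.06 (SE), adjusted p = 2.12e-05). Mettl3, the enzyme that writes N6-methyladenosine into mRNA, was at 11.7, 9.26, 9.44 and 9.96 FPKM at 0 h and 7.56, 7.45, 7.04 and 7.20 FPKM at 1 h (log2 fold change -0.41 ± 0.06 (SE), adjusted p = 9.76e-05). Both genes had every 1 h sample below every 0 h sample. Purg, a single-stranded nucleic acid-binding protein gene, was at 3.01, 2.74, 2.83 and 2.58 FPKM at 0 h and 1.69, 0.934, 1.96 and 1.46 FPKM at 1 h, and Nabp1, a single-stranded DNA-binding protein gene, at 22.1, 29.1, 25.7 and 21.8 FPKM and 15.7, 14.6, 17.2 and 13.9 FPKM. They had the log2 fold changes -0.61 and -0.65 and did not overlap either. Feedback inhibitors of cytokine signalling were among the fallers. Socs5 was at 6.29, 8.18, 7.80 and 7.52 FPKM at 0 h, 5.28, 5.08, 5.58 and 5.47 FPKM at 1 h and 8.03, 8.12, 8.52 and 8.34 FPKM at 3 h, so that it fell (adjusted p = 0.00209) and came back (log2 fold change from 1 h to 3 h 0.54 ± 0.08 (SE), adjusted p = 1.07e-05). Socs7 fell by 0.23, the NF-kB inhibitor gene Nfkbie by 0.42 and the HSP90 co-chaperone gene Chordc1 by 0.38 on the log2 scale. The zinc-finger genes Zfp82 and Rest, the THAP-domain gene Thap2, Ints6 of the Integrator complex, the RNA-binding protein gene Rbm12b2 and Bdp1 of the RNA polymerase III machinery were among the 15 largest decreases, each between -0.45 and -0.49 on the log2 scale.

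Of the 29 higher and 198 lower loci at 1 h, 26 and 171 had samples that did not overlap with those at 0 h, where 1.48% and 4.75% of all loci had such samples higher and lower. Transcript length differed in median between these groups, with no test. The longest annotated transcript had a median of 4598 bases in the lower loci, 3731 in the higher ones and 3301.5 in all loci tested, with a median GC content of 48.3%, 48.8% and 49.4%. When all loci were split by transcript length into 5 bins, the 2125 loci of the longest bin had a median log2 fold change of -0.08 at 1 h and the 2126 of the shortest one of 0.03, and 3.53% and 0.282% of them fell. Libraries differed in this respect, since the log2 level of the longest minus the shortest bin, relative to the 16 samples and over 9497 loci with a 0 h mean above 2 FPKM, was -0.23 and -0.22 in replicates 1 and 2 at 1 h, -0.02 and 0.06 in replicates 3 and 4, between -0.16 and 0.15 at 0 h, and 0.30 in replicate 1 at 6 h. With a correction of each sample for GC content and length, chosen after seeing the data, 71 loci were higher and 201 lower at 1 h, 173 of them among the 227. With quantile normalization 53 were higher and 96 lower. Without replicates 1 and 2 at 1 h, 10 were higher and 20 lower. All 227 loci kept their direction, which is no separate check because replicates 3 and 4 had helped to pick them. The part of transcript length in these changes was not tested further.

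**Figure D4:**
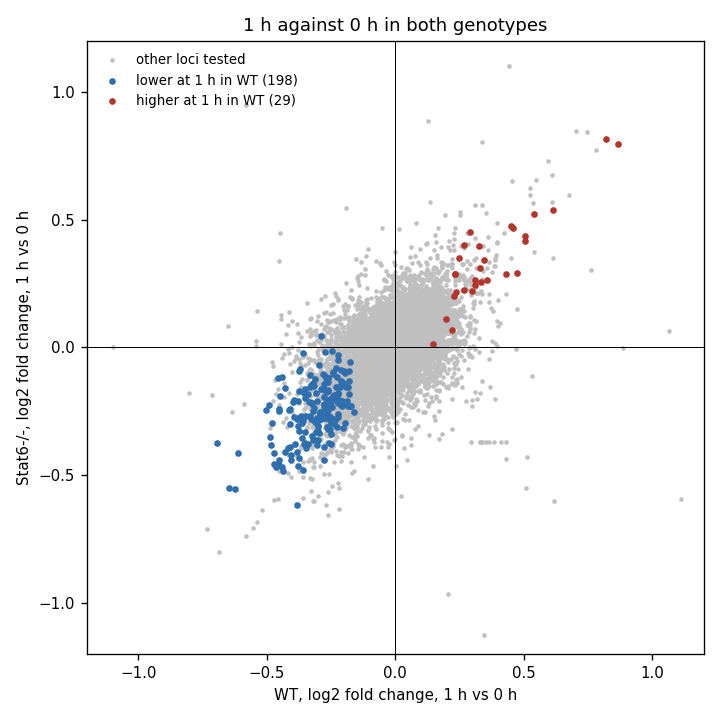
Log2 fold change at 1 h against 0 h in WT controls (x axis, 4 samples a time) and in Stat6-/- controls (y axis, 2 samples a time), one point per locus tested. Axes span 1.2 either way and 32 loci, none of them coloured, lie outside. Of the 227 coloured loci, past the adjusted p in WT, 226 have the same sign in Stat6-/- cells.

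The same hour was also measured in the Stat6-/- controls, which share no sample with WT. Of the 227 loci, 226 had a fold change of the same sign there (99.6%), as had 68.0% of all loci. The median log2 fold change in Stat6-/- cells was 0.29 for the 29 higher loci and -0.24 for the 198 lower ones, against -0.01 for all loci. With 2 samples a time, no locus was higher (0.0%) and 9 were lower (0.084%) at 1 h in Stat6-/- cells alone, and all 9 had also fallen in WT. Trmt1l was at 11.3 and 11.5 FPKM at 0 h and 7.36 and 8.59 FPKM at 1 h in these samples, and Id2 at 36.1 and 47.9 FPKM and 70.9 and 77.4 FPKM, neither with overlap. No locus differed between the genotypes in the change at 1 h, with 43 loci at an unadjusted p under 0.05, or in the pooled change, with 141 (limma, 0 at an adjusted p under 0.05 in both). With 2 Stat6-/- samples a time this does not show that the genotypes act alike.

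Set against 1 h, many genes were higher at both later times by small steps, and a few by more than 2-fold. These comparisons share the 1 h samples with each other and with the one above. At 3 h 472 loci were higher (4.4%) and 54 lower (0.504%) than at 1 h, and at 6 h 692 were higher (6.46%) and 164 lower (1.53%). With quantile normalization these counts were 339 and 122 at 3 h and 597 and 284 at 6 h, and without replicates 1 and 2 at 1 h they were 100 and 14 at 3 h and 116 and 29 at 6 h. With the correction for GC content and length they were 470 and 149 and 722 and 304. With the block 1063 were higher (9.92%) and 209 lower (1.95%) at 3 h, and 1459 higher (13.6%) and 724 lower (6.76%) at 6 h. The 692 loci higher at 6 h had a median of -0.20 at 1 h and 0.11 at 6 h against 0 h, a pattern that their choice by the step from 1 h to 6 h itself favours. In Stat6-/- cells 680 of them had the same sign from 1 h to 6 h, as had 80.4% of all loci. In Stat6-/- cells alone 86 loci were higher (0.803%) and 16 lower (0.149%) at 6 h than at 1 h. The steepest rises were those of Thbs1, with a log2 fold change of 2.31 ± 0.19 (SE) from 1 h to 6 h (adjusted p = 9.82e-11), and of Il1b.

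Il1b, the precursor of the cytokine interleukin-1 beta, was at 13.98, 12.1, 6.79 and 10.4 FPKM at 0 h, 7.34, 8.90, 4.52 and 3.98 FPKM at 1 h, 31.7, 36.2, 22.4 and 23.96 FPKM at 3 h and 38.7, 40.2, 27.5 and 19.1 FPKM at 6 h. All later samples at 3 h and 6 h lay above those at 0 h. The change at 6 h against 0 h of 1.44 ± 0.61 (SE) did not pass the test (adjusted p = 0.482, blocked 2.79e-05), while that from 1 h to 6 h of 2.17 ± 0.61 (SE) did (adjusted p = 0.0198). Its level in Stat6-/- cells differed widely between the 2 samples, at 5.82 and 25.8 FPKM at 1 h and 17.3 and 85.6 FPKM at 6 h. That spread entered the SE of the unblocked fit, which covers all groups. Fosl2, a FOS-related partner of JUN proteins in AP-1, was at 4.95, 5.76, 5.40 and 4.98 FPKM at 0 h, 3.44, 3.70, 3.93 and 3.04 FPKM at 1 h and 9.82, 10.9, 8.86 and 7.46 FPKM at 3 h. Its 1 h samples lay below and its 3 h samples above all those at 0 h, and the step from 1 h to 3 h was 1.17 ± 0.21 (SE) (adjusted p = 0.000321). Cytip made a step of 1.25 ± 0.16 (SE) from 1 h to 6 h (adjusted p = 1.08e-06).

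Early response genes were the first of the lists. Of all loci 0.271%, 0.084% and 0.121% were higher and 1.85%, 0.0653% and 0.0187% lower at 1, 3 and 6 h against 0 h. With the block 1.39% were higher and 5.44% lower at 1 h, and 2.47% and 3.0% at 6 h. At 3 h 96 of the 10716 loci were higher and 60 lower with the block. Of 33 tested immediate early genes only Klf10 rose at 1 h, Nr4a1 and Nr4a2 rose at 3 h, and Nr4a1, Nr4a2 and Zfp36 rose at 6 h, with none falling. With the block 3 rose and 2 fell at 1 h, and 6 rose and none fell at 3 h and again at 6 h. The list's median log2 fold change was 0.09 at 1 h, 0.01 at 3 h and 0.09 at 6 h, beside -0.02, 0.00 and -0.01 over all loci. Fos, the prototype of the group, was at 78.5 ± 3.13 FPKM at 0 h and 128 ± 23.5 FPKM at 6 h (adjusted p = 0.0818, blocked 0.000873), and differed without the block only between 1 h and 6 h (log2 fold change 0.53 ± 0.17 (SE), adjusted p = 0.0437). The stress sensor gene Gadd45b went the other way, from 24.1 ± 3.13 FPKM at 1 h to 14.9 ± 0.357 FPKM at 6 h (adjusted p = 0.00355). Of 17 inhibitors of MAP kinase signalling none passed the test against 0 h without the block. Blocked, 3 of the 17 were higher at 3 h and 2 at 6 h, with Dusp5 at both times (blocked adjusted p = 0.00671 and 0.00139). Errfi1 and Spred3 rose between 1 h and 6 h by 0.29 and 0.36.

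Few other inflammatory genes passed the test, counted without the block unless stated. The shares of all loci against 0 h are those given with the early response genes. Of 36 tested NF-kB targets and cytokines 1 fell at 1 h, Nfkbie, and none rose at any time against 0 h. Their medians were -0.12, -0.01 and -0.04 at 1, 3 and 6 h. Blocked, 3 of the 36 fell at 1 h, 1 rose at 3 h, and 3 rose and 1 fell at 6 h. Of the 10 tested feedback inhibitors of JAK-STAT signalling, Socs5 and Socs7 fell at 1 h (2 rose and 3 fell with the block). Socs5, Socs7 and Bcl6 were higher at 3 h or 6 h than at 1 h. Few members of the stress lists passed the test. Of 17 heat shock and chaperone genes Chordc1 alone moved at 1 h (2 fell with the block). None of 18 genes of the integrated stress response moved at any time against 0 h. Blocked, 2 of the 18 rose and 3 fell at 1 h. Of 19 genes of the unfolded protein response only Pdia3 passed, at 6 h. Calr, the chaperone calreticulin, was at 609 ± 75.2 FPKM at 0 h and 407 ± 39.1 FPKM at 6 h, which passed against 1 h (adjusted p = 0.0111) but not against 0 h (adjusted p = 0.101, blocked 0.0166). With the block 4 of the 19 were lower at 3 h and 5 at 6 h than at 0 h. Of 16 tested p53 targets 4 were higher at 3 h than at 1 h, where 4.4% of all loci were, and the median of the 16 was 0.04. With the block 5 of them were higher, beside 9.92% of all loci, and 2 were lower at 1 h than at 0 h. The 4 were Cdkn1a, Mdm2, Sesn2 and Zmat3, by 0.58, 0.34, 0.59 and 0.20. Of 27 receptors for chemokines and other migration cues Lpar6 rose at 6 h against 0 h (4 rose and 1 fell with the block). S1pr1 and Adora2b were among those that rose from 1 h to 6 h.

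Some lists drifted in a single direction with no member past the test against 0 h unless the block was used. All 33 tested type I interferon-stimulated genes had a lower mean at 6 h than at 0 h, with a median log2 fold change of -0.56, and none passed without the block. With it 27 of the 33 were lower at 6 h than at 0 h, where 3.0% of all loci were, and 22 were lower at 6 h than at 1 h, where 6.76% of all loci were. Their mean log2(FPKM + 1) was 6.10, 6.03, 5.76 and 5.76 in the 4 samples at 0 h and 5.60, 5.62, 5.28 and 4.93 at 6 h, so that the groups did not overlap, and replicates 3 and 4 lay below replicates 1 and 2 at both times. Cxcl10 was at 41.3 FPKM at 0 h and 20.2 FPKM at 6 h (adjusted p = 0.629, blocked 0.025), and Isg15 at 169 FPKM and 91.3 FPKM. In the 2 Stat6-/- samples the list's mean was 5.16 and 6.81 at 0 h and 4.22 and 6.23 at 6 h. The spread between these 2 entered the unblocked fit, which covers all groups. Within every replicate number of both genotypes the list's mean was lower at 6 h than at 0 h. All 28 genes of mitosis had a higher mean at 3 h and at 6 h than at 0 h, with medians of 0.23 and 0.27. Their mean log2 level was 3.07, 3.33, 3.78 and 3.80 at 0 h and 3.37, 3.72, 3.96 and 4.21 at 6 h, and the samples overlapped. None of the 28 passed against 0 h, with or without the block. The 27 genes of DNA replication had a median of -0.30 at 6 h against 0 h and none passed (3 lower with the block). With the block 11 were lower at 6 h than at 1 h, beside 6.76% of all loci. Without it 6 fell between 1 h and 6 h, where 1.53% of all loci did. These were Mcm3, Mcm6, Cdt1, Gins2, Ung and Chaf1b, which fell by 0.40 to 0.65. Of 26 cholesterol synthesis genes 25 had a lower mean at 6 h than at 0 h, with a median of -0.28 and none past the test. With the block 1 was lower than at 0 h, where 3.0% of all loci were. Also with it 12 were lower than at 1 h, where 6.76% of all loci were. Over all loci the median at 6 h was -0.01. The 6 monocyte markers also had lower means at 6 h, with a median of -0.42, as had all 8 tested neutrophil markers, with a median of -0.16. None of these markers passed the test without the block, and 2 of each list were lower with it, beside 3.0% of all loci. The part of such cells in these drifts was not tested.

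**Figure D5:**
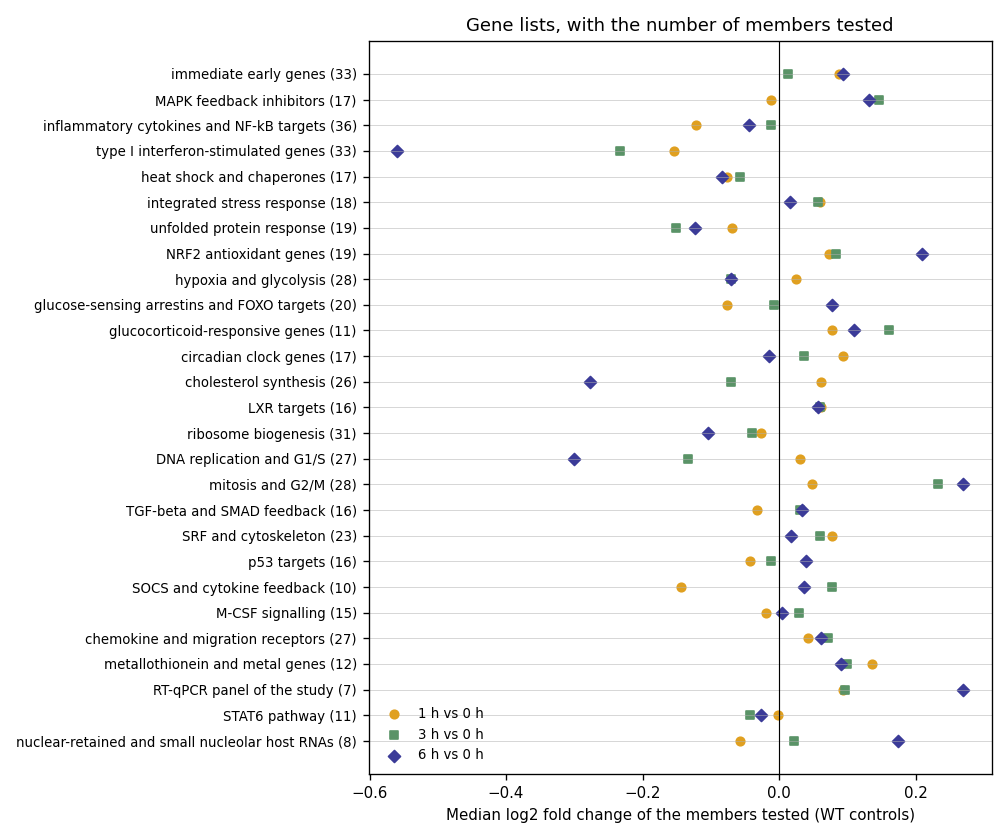
Median log2 fold change on the log2(FPKM + 1) scale (x axis) of the tested members of each gene list (y axis, number tested in brackets) at 1, 3 and 6 h against 0 h in WT controls. At 6 h the interferon-stimulated genes reach -0.56, the replication genes -0.30 and the mitosis genes 0.27, while the immediate early genes stay at 0.09.

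The remaining lists held few or no genes past the test against 0 h without the block. Of 23 genes of SRF and the cytoskeleton Lats2 alone fell, at 1 h. In the list of TGF-beta and SMAD feedback genes Thbs1 and Id2 are the members described above, and Id3 was higher at 6 h than at 1 h. Cry1 of the clock was lower at 6 h than at 1 h and Nfil3 higher (adjusted p = 0.0176 and 0.00298). The NRF2 antioxidant list had a median of 0.21 at 6 h, with 16 of 19 genes above 0 and none past the test. With the block 9 of the 19 were higher at 6 h than at 0 h, where 2.47% of all loci were. The lists of LXR targets, metallothioneins, glucocorticoid-responsive genes, FOXO targets, clock genes, ribosome biogenesis and the STAT6 pathway also had none against 0 h without the block. Snhg3, a host of small nucleolar RNAs, rose in the pooled comparison by 0.45 (adjusted p = 0.0481). Of the 9 genes that the study followed by RT-qPCR, of which Klf4, Hbegf and Edn1 were chosen for activation by IL-4 and the others for repression, 7 were tested and none passed the test against 0 h without the block (with it Fos and Clec4d passed at 6 h and Fos also at 3 h), while Hbegf and Edn1 stayed under 1 FPKM in all 16 samples. Abca1 was at 21.1 ± 1.97 FPKM at 0 h and 25.8 ± 4.06 FPKM at 6 h, Clec4d at 409 ± 36.01 and 523 ± 73.6 FPKM, Cd14 at 402 ± 38.7 and 519 ± 117 FPKM, Tlr2 at 59.7 ± 9.77 and 53.6 ± 9.73 FPKM, Nlrp3 at 15.5 ± 1.25 and 15.2 ± 1.16 FPKM and Klf4 at 3.20 ± 0.686 and 2.68 ± 0.320 FPKM (SD, n = 4 each).

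Promoter motifs were counted in both strands of the windows described above, with no test. The palindrome TGACGTCA was in 10 of 153 matched promoters of loci that fell at 1 h (6.54%), 2 of 23 that rose (8.7%), and 3.42% of the 8039 of all loci tested. The E-box CACGTG was in 17.3% of 127 promoters of loci lower at 6 h than at 1 h, 9.07% of 540 of those higher, and 10.8% of all tested. The AP-1 motif TGANTCA was in 5.88% of the promoters of loci that fell at 1 h and 4.91% of all tested, and the heat shock element in 0.654% and 0.373%. The other motifs searched were the half-site, the antioxidant element, the D-box TTANGTAA, the CArG box of SRF and the NF-kB site. For Cirbp, the gene with the largest rise at 1 h, the window is printed because it leads that hour.
Cirbp, chr10:80167589-80167888, plus strand: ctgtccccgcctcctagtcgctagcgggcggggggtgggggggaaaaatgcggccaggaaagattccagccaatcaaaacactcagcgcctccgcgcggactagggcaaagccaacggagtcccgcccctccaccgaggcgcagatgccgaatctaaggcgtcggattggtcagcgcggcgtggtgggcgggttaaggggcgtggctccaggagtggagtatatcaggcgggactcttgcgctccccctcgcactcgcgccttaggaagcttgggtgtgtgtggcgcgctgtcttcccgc
It held none of the motifs searched, which says only that these letters are not in the window.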

How the data were processed

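RNA was measured by poly(A) RNA-seq of bone marrow-derived macrophages, and the 53 samples formed 18 groups by genotype, treatment and time as labelled. The deposited values are FPKM, which the authors made with TopHat2 2.0.7 and Cufflinks 2.0.2 at default settings on mm10. The gene annotation is not given in the sources used here. FPKM depends on an assumed transcript length and keeps no read counts, so absolute depth is unknown. Symbols shared by several loci and a lysozyme gene listed at 0 in some samples were left as deposited.

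Of 23847 loci 10716 reached 1 FPKM in at least 1 of the 16 WT controls and were tested. Values were put on the log2(FPKM + 1) scale and group means were fitted over 53 samples with limma 3.58.1 in R 4.3.3 (empirical Bayes with an intensity trend, 35 residual degrees of freedom, two-sided). P-values were adjusted by Benjamini-Hochberg over all loci of each comparison. Calls needed a 2-fold change together with an adjusted p under 0.05, and the adjusted p alone served as a second rule. Fold changes on this scale understate changes of genes with low FPKM. The procedure was tested on simulated data. Whether replicate numbers pair samples was checked by correlating deviations from group means. All 4 same-numbered pairs exceeded 0.1 for 1 h against 0 h, 3 h and 6 h against 1 h, and 6 h against 3 h, so the blocked counts stand beside those results. The check was read by comparison after the fits had been seen.

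The samples and gene lists were chosen with earlier results of these data known. Named genes were up to 6 called each way pooled and 4 each way at each time with samples that did not overlap, up to 4 members with the largest changes of each list, the RT-qPCR panel and Stat6. Others were named after their values were seen, namely loci past the adjusted p, the 15 largest changes each way at 1 h, and list members past the test. Comparisons within Stat6-/- cells by time, the GC and length correction (splines with 4 degrees of freedom on the longest GENCODE transcript), the CREB half-site and the omission of 2 samples at 1 h were also added after seeing the data. Other alternatives changed the pseudocount, filter, scaling, samples in the fit, replicate block, variance trend and each replicate in turn. Results for a few genes are not reported here.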

Additional observations from a re-analysis of the deposited data

Results flagged for a closer look

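Of 104 sets of 4 samples examined (26 genes at 4 times), 3 held a sample far from the others by Dixon's criterion, which chance gives in about 1 in 20 sets. Mnt was at 10.57 FPKM in WT replicate 2 at 3 h, where the nearest other sample was at 11.89 FPKM. At 6 h Mnt was at 15.12 FPKM in WT replicate 4 and at 13.18 FPKM in the nearest sample. Got1 was at 30.31 FPKM in WT replicate 4 at 0 h and at 29.09 FPKM in the nearest sample, and this sample lay closer to the later times than the rest of its group. None of the 3 belongs to the 1 h samples.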

How the results depend on the processing

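No named gene past the adjusted p changed sign in its own result, and sign was not compared for the others. The balance of higher and lower loci did turn, at 6 h and pooled with the block, and at 6 h with only the compared groups. Some loci past the adjusted p changed sign with the GC and length correction. It kept the sign of 226 of 227 at 1 h, 519 of 526 for 3 h against 1 h and 842 of 856 for 6 h against 1 h. Among named genes, 5066 results kept their side of the threshold, 301 fell short of it and 138 passed only under the alternative, and 36 moved. Without a limit on the fold the calls became 11 pooled, 227 at 1 h, 16 at 3 h, 15 at 6 h, 526 for 3 h against 1 h and 856 for 6 h against 1 h. A pseudocount of 0.1 gave 2 calls at 3 h, 5 at 6 h and 11 from 1 h to 6 h. With only the compared groups in the fit, 5 were called at 6 h, 3 of them higher, and 88 passed the adjusted p, 40 of them higher. By adjusted p alone, quantile normalization gave 149 at 1 h, 55 at 6 h and 1 for 6 h against 3 h, upper-quartile scaling 29 at 6 h, and the GC and length correction 42 at 3 h and 73 at 6 h. With no filter 1 locus passed for 6 h against 3 h, 42 for pooled Stat6-/- controls with 1 call, and 1 for the genotype difference. Without replicates 1 and 2 at 1 h there was 1 call at 1 h, and 30 loci passed at 1 h, 114 for 3 h against 1 h and 145 for 6 h against 1 h. The causes were not tested.

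Leaving out each replicate gave 98 to 292 loci past the adjusted p at 1 h (98 without replicate 2 at 1 h, 106 without replicate 1 at 1 h, 145 without replicate 4 at 0 h). It gave 0 to 13 pooled, with 0 without replicate 1 at 0 h, 4 without replicate 2 at 0 h, 3 or 4 at 1 h or 2 at 3 h, 5 without replicate 1 at 3 h or 6 h, and 7 without replicate 4 at 0 h or 1 at 1 h. The range was 3 to 17 at 3 h, with 3, 5 and 4 without replicates 1, 2 and 3 at 3 h and 6 and 5 without replicates 1 and 2 at 0 h. It was 9 to 39 at 6 h, with 9 without replicate 1 at 0 h or replicate 1 or 3 at 6 h, 24 without replicate 3 at 0 h and 39 without replicate 2 at 1 h. It was 271 to 668 for 3 h against 1 h and 383 to 1023 for 6 h against 1 h, both lowest without replicate 2 at 1 h. Without replicate 1 at 1 h they were 318 and 531, without replicates 3 and 4 at 3 h the first was 324 and 348, and without replicate 1 at 6 h the second was 543. Calls ranged from 2 to 4 for 3 h against 1 h, with 2 without replicate 2 or 3 at 3 h, 2 to 3 at 6 h and 4 to 7 for 6 h against 1 h, were 1 at 3 h, and were 0 pooled, at 1 h, for 6 h against 3 h, in pooled Stat6-/- cells and for the genotype difference.

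Samples that share a replicate number deviated together in 21 of 24 pairs (correlation over 0.1, range 0.007 to 0.557), against 13 of 72 pairs with different numbers. With the replicate block 732 loci passed the adjusted p at 1 h, 156 pooled, 156 at 3 h, 586 at 6 h, 1272 for 3 h against 1 h, 2183 for 6 h against 1 h and 3 for 6 h against 3 h, with 2 calls at 3 h and 6 at 6 h, 3 of them higher. Of the 156 pooled loci 73 were higher, of the 156 at 3 h 96, and the 586 at 6 h were 265 higher and 321 lower. With only the compared groups and the block the counts were 435, 192, 116, 736, 998, 2100 and 4 in the same order, with 2 calls at 3 h, 8 at 6 h, of which 3 were higher, and 1 in pooled Stat6-/- cells, the 1 locus past its adjusted p. Of the 736 at 6 h 325 were higher.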
